A study of Arabidopsis thaliana with 12 samples.

Results

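The 8 NHX genes of Arabidopsis thaliana and HKT1 were followed through a salt experiment on seedlings. The members were chosen by locus, 9 of the 34218 genes in the deposited table. NHX proteins exchange cytosolic sodium or potassium for protons across a membrane, and so depend on the proton gradients that pumps build. NHX1 to NHX4 are placed in the vacuolar membrane, NHX5 and NHX6 in endosomes and the trans-Golgi network, and SOS1 (also called NHX7) and NHX8 in the plasma membrane. HKT1 is a sodium transporter and not an antiporter. It takes sodium back out of the xylem, and its loss lets sodium build up in leaves.

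Wild-type Col-0 was compared with a line harbouring pTaF5H1:TaF5H1, a wheat gene for ferulate 5-hydroxylase (an enzyme of the syringyl lignin branch) under its own wheat promoter. All 12 libraries came from seedlings aged 14 days, with the tissue labelled as leaves, in 4 groups of 3 biological replicates. Each genotype was held for 6 h in nutrient solution (untreated) or treated for 6 h with 200 mM NaCl. The sources used here name no other independent line and no empty-vector control. The wheat transgene was not analysed here, so these values do not check the genotype labels.

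Library totals ran from 17173618 to 21651124 counts. In the salt-treated line replicate 1 was unlike replicates 2 and 3 (Pearson r over genes 0.931 and 0.935, against 0.989 for replicates 2 and 3), and member values whose call changed without it are given both ways. Levels per length are given as FPKM (a gene's count divided by its exon length and its library total). The summed FPKM of 7 root markers was at most 0.1 in any library, with 6 or 7 of them at 0. The summed FPKM of 3 mesophyll markers ran from 11921 to 14893 in wild type without salt, 2997 to 3270 in wild type with salt, 9062 to 9914 for the line without salt and 315 to 1517 with it. Most of the mesophyll sum was RBCS1A. In the untreated line RBCS1A and CA1 stood below wild type in FPKM, and LHCB1.2 did not (means of 56.6 and 55.7). Of these 3 markers the line against wild type had 0 called untreated, beside 13.9% of all genes. Under salt all 3 were called lower, beside 34.6% of all genes called. For 5 guard cell markers the summed FPKM was 968 to 1224, 417 to 590, 121 to 246 and 35.4 to 227 in the same order of groups. Most of that sum was TGG1, and the 5 markers did not move together. In the untreated line against wild type TGG1 was called lower, SLAC1 higher, and MYB60, KAT1 and FAMA were not called, while under salt TGG1 was again lower and KAT1 higher. The part of cell makeup in the results below was not tested. In whole leaves, fewer cells of a type and less RNA per cell cannot be told apart.

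NHX1 was the most abundant of the 9 transcripts in all 12 libraries, and its share of the family's RNA was higher after salt. The summed FPKM of the 8 NHX genes was 111 ± 5.73 (SD, n = 3) in untreated wild type and 272 ± 9.86 after salt. In the line it was 108 ± 11.2 untreated and 316 ± 7.60 after salt. NHX1 made up 53.2% ± 1.95 of this sum in untreated wild type and 79.8% ± 0.479 after salt. In the line its share was 50.0% ± 3.94 untreated and 76.7% ± 3.06 after salt. These shares are a description of levels per length, with no test.

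**Figure D1:**
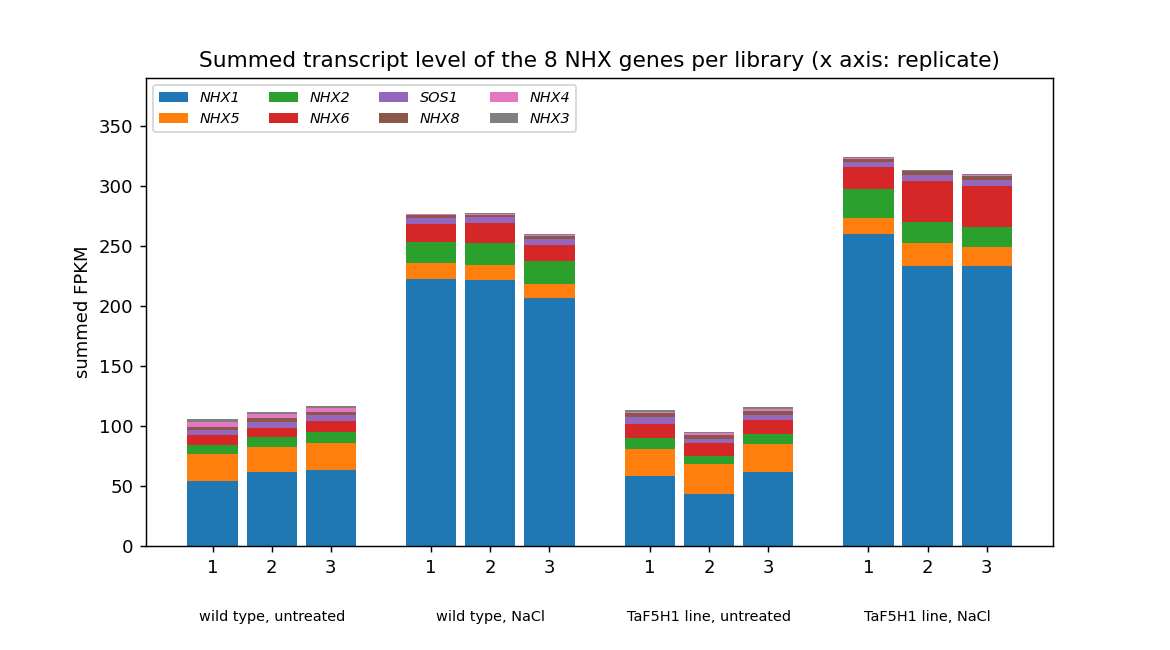
Summed FPKM of the 8 NHX genes in each of the 12 libraries (y axis), stacked by gene, with replicates 1 to 3 of each group along the x axis. Untreated libraries sum to between 95.2 and 117 and salt-treated libraries to between 260.2 and 324, and NHX1 takes the largest part of every bar.

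The order of the other members differed between untreated and salt-treated leaves. In untreated wild type the mean FPKM ran from NHX1 (59.4) through NHX5 (22.1), NHX2 (8.50), NHX6 (8.33), SOS1 (4.92), NHX4 (3.68), NHX8 (2.55) and NHX3 (1.98) to HKT1 (0.83). Of the neighbours in that order, NHX2 and NHX6 had overlapping libraries and no other pair did. In salt-treated wild type the order began with NHX1 (217), NHX2 (18.5), NHX6 (14.6) and NHX5 (12.7), with the libraries of NHX6 and NHX5 overlapping. In the salt-treated line NHX6 (28.9) followed NHX1 (242), but its libraries overlapped with those of NHX2 (19.4), and those of NHX2 with those of NHX5 (16.2). NHX4 lay above NHX8 and NHX3 in untreated wild type and, at 0.49 FPKM, below both in salt-treated wild type.

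Counts were compared with edgeR's quasi-likelihood test, fitted on the 17038 genes whose FPKM averaged 1 or more over the libraries. Each log2 fold change (log2FC) is followed by its standard error, and "adjusted p" is the Benjamini-Hochberg value over all genes tested, with a call at under 0.05. Of the 9 members, 8 passed the filter. NHX3 and NHX4, at means of 1.17 and 1.66 FPKM over all libraries, passed it through untreated wild type, where they were highest. HKT1, at 0.328, did not pass, and was read from another edgeR fit over the 19401 genes kept by edgeR's own count filter.

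Salt raised 3 of the 8 tested members in wild type (NHX1, NHX2 and NHX6) and lowered 2 (NHX4 and NHX5). Over all genes 53.8% were called in this comparison (27.1% up and 26.7% down), so 5 of 8 is near the background. In the line 3 were called up and 2 down, and they were the same genes, beside 64.8% of all genes called (31.4% up and 33.5% down). The median log2FC of the 8 members was 0.23 in wild type and 0.24 in the line, and that of all genes tested was -0.02 and -0.05. With library totals in place of TMM (trimmed mean of M-values) scaling, the median of all genes moved to -0.22 in wild type and -0.31 in the line. The share of called genes that were called up then went from 50.4% to 36.8% and from 48.4% to 34.9%.

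**Figure D2:**
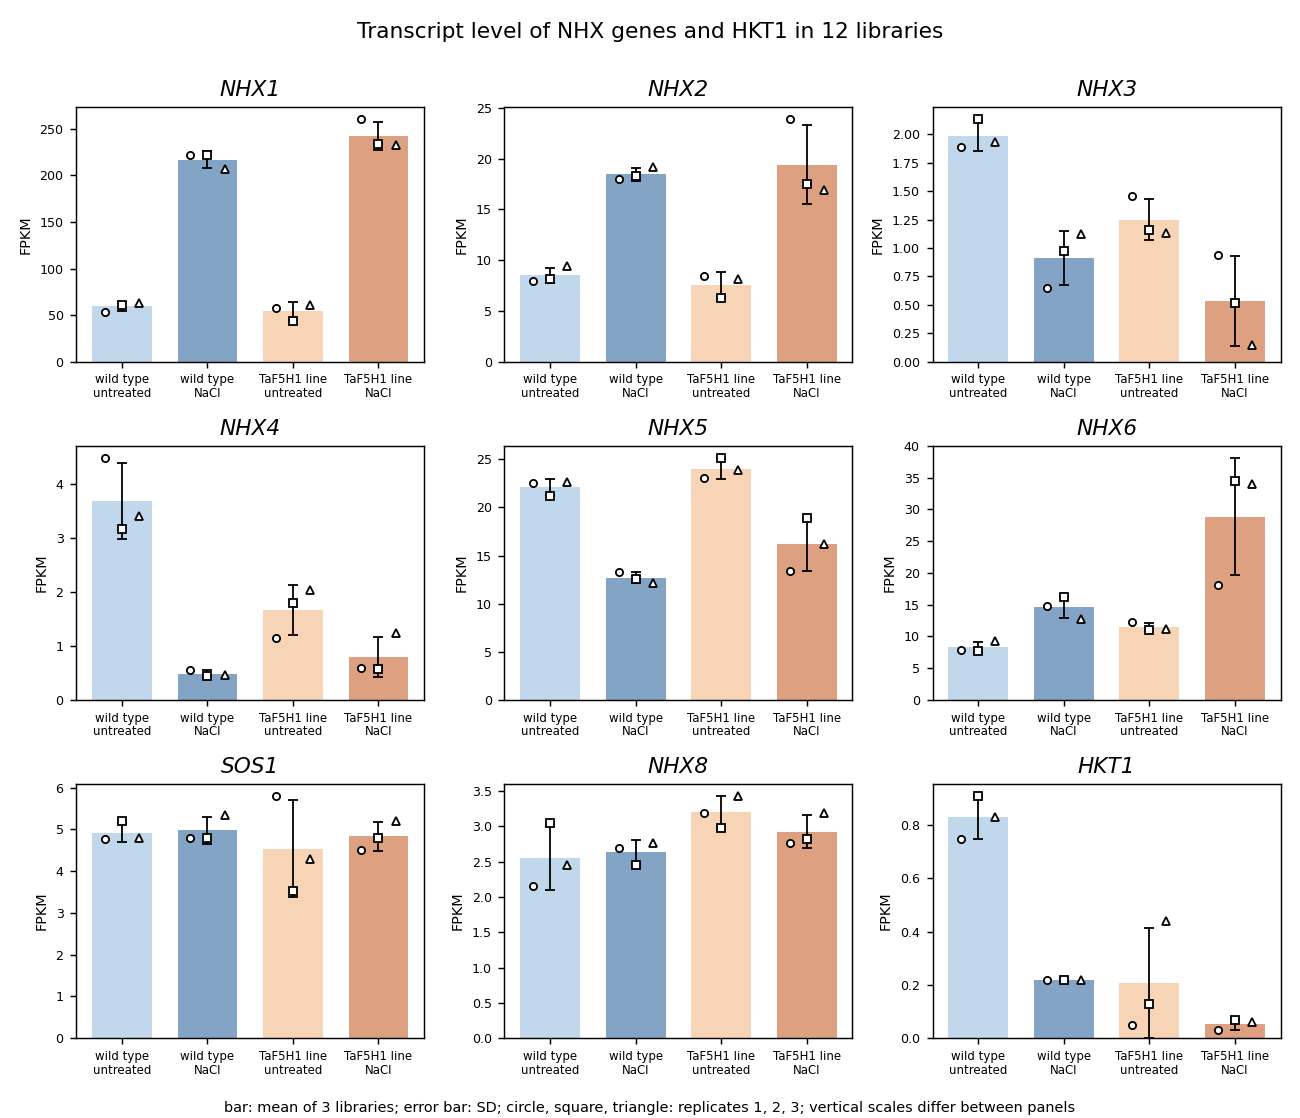
FPKM (y axis, a separate scale for each panel) of the 8 NHX genes and HKT1 in the 4 groups. Bars are means of 3 libraries, error bars are SDs, and circles, squares and triangles are replicates 1, 2 and 3. NHX1, NHX2 and NHX6 are higher after salt in both genotypes, NHX5 is lower, and NHX3, NHX4 and HKT1 stand highest in untreated wild type.

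NHX1 (AT5G27150, chromosome 5, 9553300 to 9557594, plus strand), the main sodium and potassium exchanger of the vacuole, stood at 53.9, 61.3 and 63.0 FPKM in untreated wild type and at 222, 222 and 206 after salt. In the line it stood at 58.2, 43.4 and 61.4 untreated and at 260.0, 234 and 233 after salt. Every salt-treated library lay above every untreated one in both genotypes. The log2FC was 2.07 ± 0.16 in wild type (adjusted p = 1.4e-06), a 4.19-fold rise, and 2.42 ± 0.17 in the line (adjusted p = 3.9e-07), a 5.35-fold rise. The line responded by 0.35 ± 0.22 more than wild type (adjusted p = 0.33, 95% interval -0.17 to 0.87), which was not called. Nor was the line against wild type, at -0.22 ± 0.16 untreated (adjusted p = 0.39) and 0.13 ± 0.16 under salt (adjusted p = 0.54).

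NHX2 (AT3G05030, chromosome 3, 1393142 to 1397627, minus strand) encodes the closest relative of NHX1, and the pair maintains potassium and pH in the vacuole. Their coding sequences of 538 and 546 codons were 82.0% identical, the highest value among the 8 NHX genes. NHX2 stood at 7.98, 8.14 and 9.39 FPKM in untreated wild type and at 18.0, 18.3 and 19.1 after salt. The line gave 8.43, 6.23 and 8.14 untreated and 23.9, 17.5 and 16.9 after salt. Salt-treated and untreated libraries did not overlap in either genotype. The log2FC was 1.32 ± 0.17 in wild type (adjusted p = 6.1e-05) and 1.62 ± 0.17 in the line (adjusted p = 1e-05), and the responses differed by 0.30 ± 0.24 (adjusted p = 0.43). NHX2 in the line against wild type was -0.25 ± 0.17 without salt (adjusted p = 0.35) and 0.05 ± 0.17 under salt (adjusted p = 0.84).

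NHX4 and NHX3 are the other vacuolar genes. NHX4 (AT3G06370, chromosome 3, 1929946 to 1934073, minus strand) stood at 4.48, 3.16 and 3.40 FPKM in untreated wild type and at 0.56, 0.45 and 0.46 after salt. For the line the values were 1.15, 1.80 and 2.04 untreated and 0.60, 0.58 and 1.23 after salt. Wild type was thus high without salt and uniformly low with it. The untreated line lay between these levels, and its untreated and salt-treated libraries overlapped. In wild type NHX4 fell by 2.71 ± 0.33 on the log2 scale (adjusted p = 3.7e-05), and in the line it fell by 0.79 ± 0.32 (adjusted p = 0.044). The line against wild type was -1.24 ± 0.30 without salt (adjusted p = 0.02) and 0.68 ± 0.34 under salt (adjusted p = 0.14).

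NHX4 was the 1 member of 8 whose salt response differed between the genotypes, beside 5.88% of all genes called for this difference (2.92% up and 2.95% down). The log2FC in the line was above that in wild type by 1.91 ± 0.45 (adjusted p = 0.035, 95% interval 0.87 to 2.95). Leaving out replicate 1 of the salt-treated line gave 2.06 (adjusted p = 0.0034), and the call on salt in the line ended (-0.62, adjusted p = 0.12), as it did with median-of-ratios scaling (-0.74, adjusted p = 0.057). In all, 13 of 21 alternatives ended the call on salt in the line and 10 of 21 that on the difference. For the difference, the alternative with only the groups compared repeats the main fit, since all 4 groups enter it. The call on the difference ended when any 1 of 9 other libraries was left out, at values from 1.49 to 2.03 and adjusted p up to 0.083. The 3 libraries that could be left out with the call kept were replicate 3 of the untreated line and replicates 1 and 2 of the salt-treated line. The call on the untreated line against wild type ended without replicates 1 or 2 of the line or replicates 1 or 3 of wild type (adjusted p up to 0.085). NHX4 counts were 25 to 246 per library.

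NHX3 (AT5G55470, chromosome 5, 22469245 to 22472706, minus strand) is the other little-expressed vacuolar gene, and the deposited table gives it the symbol NHX4. It is called NHX3 here by its locus in the TAIR10.1 RefSeq annotation. It stood at 1.89, 2.13 and 1.93 FPKM in untreated wild type and at 0.65, 0.97 and 1.12 after salt. Levels in the line were 1.46, 1.16 and 1.13 untreated and 0.94, 0.52 and 0.15 after salt. Salt-treated libraries lay below untreated ones in both genotypes, but the log2FC of -0.93 ± 0.44 in wild type (adjusted p = 0.097) and -0.96 ± 0.47 in the line (adjusted p = 0.093) did not pass. Counts were 5 to 77 per library, and with library totals in place of TMM both were called (adjusted p = 0.044 and 0.033). Without replicate 1 of the salt-treated line, salt in both genotypes was called (-0.90, adjusted p = 0.035, and -1.59, adjusted p = 0.0062), as was the line against wild type under salt (-1.44, adjusted p = 0.017). Without replicate 3 of the salt-treated line, by contrast, NHX3 stood at -0.51 for salt in the line (adjusted p = 0.24) and at -0.33 for the line against wild type under salt (adjusted p = 0.54). With all libraries NHX3 in the line against wild type was -0.75 ± 0.43 without salt (adjusted p = 0.27) and -0.78 ± 0.48 under salt (adjusted p = 0.22), and the interaction was -0.03 ± 0.61 (adjusted p = 0.98). NHX3 shares 60 bases with AT5G55460 on the opposite strand, which fell by 2.44 ± 0.39 in wild type (adjusted p = 0.00029) and by 0.99 ± 0.36 in the line (adjusted p = 0.029, and -0.58 without replicate 1 of the salt-treated line). Whether strand was used in counting is not stated in these sources, so reads in those bases cannot be told apart.

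**Figure D3:**
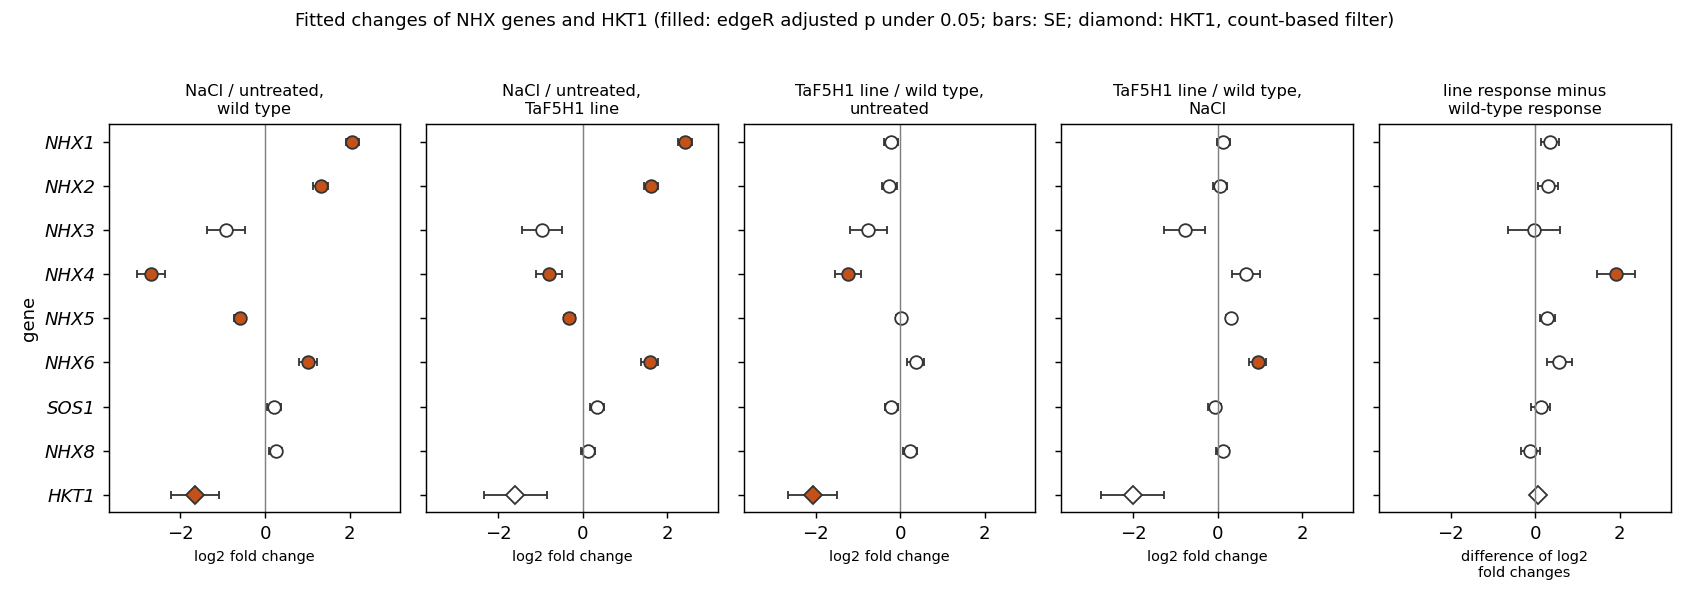
Log2 fold change (x axis) of the 8 NHX genes and HKT1 in the 5 comparisons, with standard errors as bars except for the HKT1 interaction. Filled symbols have an edgeR adjusted p under 0.05, and diamonds mark HKT1, which came from the fit with the count filter. NHX1, NHX2 and NHX6 lie to the right under salt in both genotypes, and in the right panel NHX4 alone is filled, at 1.91.

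The endosomal genes NHX5 and NHX6, which keep endosomes from becoming too acid and are needed for transport of proteins to the vacuole, moved in opposite directions under salt. Their coding sequences were 71.3% identical. NHX5 (AT1G54370, chromosome 1, 20293151 to 20297236, minus strand) stood at 22.5, 21.2 and 22.6 FPKM in untreated wild type and at 13.3, 12.6 and 12.2 after salt. The line had 23.0, 25.2 and 23.9 untreated and 13.5, 18.9 and 16.2 after salt. NHX5 fell by 0.60 ± 0.12 on the log2 scale in wild type (adjusted p = 0.0014) and by 0.31 ± 0.12 in the line (adjusted p = 0.04). Groups did not overlap across salt in either genotype, and the fall in the line was no longer called without replicate 1 of the salt-treated line (-0.19, adjusted p = 0.16), the lowest library of that group.

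Of 22 alternatives, 16 ended that call on NHX5 in the line, among them DESeq2 (-0.26, adjusted p = 0.073) and median-of-ratios scaling (-0.26, adjusted p = 0.082). The other 6 kept it, among them library totals in place of TMM. Over the 22 the log2FC ran from -0.58 to -0.19, and the adjusted p from 0.0015 to 0.17. NHX5 in the line against wild type under salt was 0.32 ± 0.12 (adjusted p = 0.061), and 0.42 without that library (adjusted p = 0.0064). Without salt it was 0.03 ± 0.12 (adjusted p = 0.9), and the interaction was 0.29 ± 0.17 (adjusted p = 0.29). NHX5 shares 174 bases with TAF6B on the opposite strand. TAF6B, a subunit gene of the general transcription factor TFIID, fell by 0.70 ± 0.14 with salt in wild type (adjusted p = 0.0011) and stood at 0.12 ± 0.14 in the line (adjusted p = 0.47). The share of these bases in the NHX5 values was not tested.

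NHX6 (AT1G79610, chromosome 1, 29952873 to 29957201, minus strand) was the 1 member of 8 called higher in the line than in wild type under salt. In FPKM the salt-treated libraries of NHX1, NHX4 and NHX5 also lay above those of wild type, without a call. How many of all genes separate in this way was not counted, so no result is read from it. NHX6 stood at 7.89, 7.77 and 9.33 FPKM in untreated wild type and at 14.7, 16.3 and 12.8 after salt. Libraries of the line stood at 12.2, 11.0 and 11.2 untreated and at 18.2, 34.5 and 34.0 after salt. The 4 groups did not overlap, and replicate 1 of the salt-treated line was much nearer to wild type than its fellows. Salt raised NHX6 by 1.01 ± 0.21 in wild type (adjusted p = 0.0016) and by 1.58 ± 0.21 in the line (adjusted p = 4.8e-05).

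Under salt NHX6 in the line against wild type was 0.94 ± 0.20 (adjusted p = 0.0073), a 1.92-fold difference, beside 34.6% of all genes called in this comparison (15.6% up and 19% down). Without replicate 1 of the salt-treated line it was 1.18 (adjusted p = 8.8e-06). A fit of those 6 libraries alone gave 0.99 (adjusted p = 0.052), which ended the call. Without salt the line against wild type was 0.37 ± 0.21 (adjusted p = 0.26), and 0.38 without that replicate (adjusted p = 0.038). The replicate belongs to neither group compared, but all 4 groups share 1 estimate of the spread. The responses differed by 0.57 ± 0.29 (adjusted p = 0.22), and by 0.80 without it (adjusted p = 0.0042).

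The plasma membrane genes were near their untreated level after salt. SOS1 (AT2G01980, chromosome 2, 457002 to 463408, plus strand), listed as NHX7 in the deposited table, exports sodium from the cell. It stood at 4.78, 5.19 and 4.80 FPKM in untreated wild type and at 4.79, 4.80 and 5.35 after salt. Levels in the line were 5.80, 3.52 and 4.30 untreated and 4.51, 4.79 and 5.19 after salt, and all groups overlapped. The log2FC was 0.22 ± 0.16 in wild type (adjusted p = 0.28, 95% interval -0.16 to 0.59) and 0.35 ± 0.16 in the line (adjusted p = 0.079, 95% interval -0.03 to 0.72). The interval thus reaches neither a doubling nor a halving in either genotype. Without replicate 1 of the untreated line, the log2FC of SOS1 in the line was 0.57 (adjusted p = 0.0042). SOS1 in the line against wild type was -0.20 ± 0.16 without salt (adjusted p = 0.43) and -0.07 ± 0.16 under salt (adjusted p = 0.75), and the interaction was 0.13 ± 0.23 (adjusted p = 0.74).

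NHX8 (AT1G14660, chromosome 1, 5031943 to 5036610, minus strand), the neighbour of SOS1 in sequence and a lithium/proton antiporter in earlier work on Arabidopsis, stood at 2.15, 3.05 and 2.45 FPKM in untreated wild type and at 2.70, 2.45 and 2.77 after salt. The line gave 3.19, 2.97 and 3.43 untreated and 2.76, 2.82 and 3.19 after salt. Groups overlapped in all comparisons. The log2FC was 0.25 ± 0.16 in wild type (adjusted p = 0.21, 95% interval -0.12 to 0.62) and 0.13 ± 0.16 in the line (adjusted p = 0.49, 95% interval -0.23 to 0.50). With library totals in place of TMM the value in the line was -0.13, so no direction is given. NHX8 in the line against wild type was 0.24 ± 0.16 without salt (adjusted p = 0.35) and 0.12 ± 0.16 under salt (adjusted p = 0.59), and the interaction was -0.12 ± 0.22 (adjusted p = 0.76).

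HKT1 (AT4G10310, chromosome 4, 6391854 to 6395922, plus strand) had the fewest reads of the 9 genes. Its counts were 27, 34 and 33 in untreated wild type, 9, 9 and 8 in salt-treated wild type, 2, 5 and 17 for the line without salt and 1, 3 and 2 with it. In FPKM these were 0.75, 0.91 and 0.83, then 0.22 in each library, then 0.05, 0.13 and 0.44, and last 0.03, 0.07 and 0.06. The libraries of untreated wild type lay above all others, and those of the salt-treated line lay below all wild-type ones. With the count filter, 51.2% of all genes were called for salt in wild type, and HKT1 among them with a log2FC of -1.65 ± 0.57 (adjusted p = 0.029). In the line, where 62.1% were called, salt gave -1.59 ± 0.75 (adjusted p = 0.082), and with library totals in place of TMM -1.87 (adjusted p = 0.045). Without replicate 1 of the untreated line this salt value of HKT1 was -2.04 (adjusted p = 0.019), and without replicate 3 of that group it was -0.43 (adjusted p = 0.65).

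The line against wild type was -2.07 ± 0.58 for HKT1 without salt (adjusted p = 0.036), where 12.7% of all genes were called, and -2.01 ± 0.74 under salt (adjusted p = 0.056), where 31.6% were. The interaction was 0.06 (adjusted p = 0.99), with 4.59% of all genes called, and ran from -0.39 to 1.23 with 1 library left out. DESeq2 called the difference under salt (adjusted p = 0.048). The call on salt in wild type ended without any 1 of the 6 wild-type libraries (adjusted p up to 0.071). The call on the untreated line ended without any 1 untreated wild-type library, without replicates 1 or 2 of the untreated line or of salt-treated wild type, and with no filter on low counts (adjusted p from 0.051 to 0.12). Without replicate 3 of the untreated line, which held 17 of its 24 counts, the difference was -3.24 (adjusted p = 0.005).

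HKT1 is known from cells that line the xylem. Of 4 vascular markers, 1 was called between the genotypes in each treatment. Of all genes, 13.9% were called untreated and 34.6% under salt. The summed FPKM of 4 vascular markers was 142 to 174 in untreated wild type, 120 to 158 in salt-treated wild type, 77.0 to 103 for the line without salt and 73.0 to 106 with it, most of it from SUC2. SUC2 (a phloem sucrose transporter) was lower in the line, with a log2FC of -0.97 ± 0.19 untreated (adjusted p = 0.0076) and -0.68 ± 0.19 under salt (adjusted p = 0.02). The xylem protease gene XCP2 had a log2FC of -1.47 ± 0.53 untreated (adjusted p = 0.086) and -1.44 ± 0.53 under salt (adjusted p = 0.054), and XCP1 one of -1.76 ± 0.68 (adjusted p = 0.11) and -1.48 ± 0.65 (adjusted p = 0.097). The phloem regulator APL had -0.32 ± 0.19 untreated (adjusted p = 0.29) and 0.24 ± 0.19 under salt (adjusted p = 0.34). When replicate 1 of the salt-treated line was left out, 3 of the 4 were called lower in each treatment. Of all 17038 genes, 5121 were then called untreated and 9185 under salt. The part of vascular tissue in the HKT1 difference was not tested.

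Across all members, the line against wild type gave 0 calls up and 1 down of 8 without salt (NHX4), where 13.9% of all genes were called (7.34% up and 6.58% down). Under salt it gave 1 up (NHX6) and 0 down, where 34.6% of all genes were called (15.6% up and 19% down). The median log2FC of the members was -0.21 and 0.13 in these comparisons, beside 0.01 and -0.03 for all genes tested. The comparisons share their groups, since each group enters both a salt and a genotype comparison. Without replicate 1 of the salt-treated line the counts were 1 up and 1 down without salt, 2 up and 1 down under salt, and 2 up and 0 down for the interaction. Of all 17038 genes, 5121, 9185 and 6270 were then called. In the 2 salt comparisons they were 3 up and 3 down in wild type and 3 up and 1 down in the line, with 10812 and 12126 called in all.

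The sequences just upstream of these genes were searched because salt acts on many genes through abscisic acid and dehydration elements. The ABRE core (ACGTG, reverse complement CACGT) and the DRE core (CCGAC, reverse complement GTCGG) were looked up on both strands in the 250 bases before the annotated start, in the TAIR10.1 reference. The ABRE core was in 22.91% and the DRE core in 11.97% of 27443 protein-coding promoters. Shown are the promoters of the member with the largest rise (NHX1, chr5:9553050-9553299, plus strand), the one whose response differed (NHX4, chr3:1934074-1934323, minus strand), and those with an ABRE core (NHX3, chr5:22472707-22472956, minus strand, SOS1, chr2:456752-457001, plus strand, and HKT1, chr4:6391604-6391853, plus strand). Each is written 5′ to 3′ on the strand of its gene, and capitals mark the matches.
NHX1: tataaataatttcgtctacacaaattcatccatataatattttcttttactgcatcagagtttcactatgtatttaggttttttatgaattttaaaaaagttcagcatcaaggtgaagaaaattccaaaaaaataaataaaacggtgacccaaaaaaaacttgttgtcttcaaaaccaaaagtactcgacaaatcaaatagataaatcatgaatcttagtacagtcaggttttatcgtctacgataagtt
NHX4: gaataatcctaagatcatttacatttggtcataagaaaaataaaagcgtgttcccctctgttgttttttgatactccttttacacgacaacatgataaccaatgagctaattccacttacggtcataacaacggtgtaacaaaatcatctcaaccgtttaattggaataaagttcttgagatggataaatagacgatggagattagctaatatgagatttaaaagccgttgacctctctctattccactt
NHX3: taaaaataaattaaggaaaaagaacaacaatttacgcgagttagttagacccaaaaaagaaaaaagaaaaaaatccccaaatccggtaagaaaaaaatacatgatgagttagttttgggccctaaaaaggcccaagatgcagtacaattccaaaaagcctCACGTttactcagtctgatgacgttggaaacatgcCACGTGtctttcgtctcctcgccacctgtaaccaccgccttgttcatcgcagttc
SOS1: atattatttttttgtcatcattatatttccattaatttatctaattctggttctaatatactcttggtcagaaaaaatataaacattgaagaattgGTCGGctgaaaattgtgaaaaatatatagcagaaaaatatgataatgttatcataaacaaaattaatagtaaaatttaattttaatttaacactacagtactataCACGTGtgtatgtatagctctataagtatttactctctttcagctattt
HKT1: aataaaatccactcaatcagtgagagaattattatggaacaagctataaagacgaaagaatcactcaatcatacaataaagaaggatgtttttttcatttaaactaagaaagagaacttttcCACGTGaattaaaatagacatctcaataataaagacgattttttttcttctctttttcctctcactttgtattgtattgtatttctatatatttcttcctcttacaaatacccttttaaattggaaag

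NHX3 held 3 ABRE core matches, at -90, -55 and -54 from the start, of which the last pair overlap in CACGTG. SOS1 and HKT1 each held 2, which also overlap in CACGTG, beginning at -49 in SOS1 and at -128 in HKT1. SOS1 also held a DRE core at -154, and NHX8 one at -149. NHX1, NHX2, NHX4, NHX5 and NHX6 held neither motif in this window. A match is not a known site, and these windows leave out elements farther upstream.

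Among genes that have a symbol and average 5 FPKM or more, the nearest to NHX1 in pattern over the 12 libraries were SCPL48, NCL and LPPG (Pearson r of log2 scaled counts 0.995 for each). The nearest to NHX2 were PLDALPHA1 (0.994), SRK2E (0.992) and AVT3A (0.991). NHX6 was most like 4CL4 (0.995), SBT3.5 (0.993) and PYD3 (0.993), and NHX5 most like WRKY58 (0.971), SDR3A (0.970) and ECS1 (0.966). The low-level genes had lower best values, with IAA1 (0.946), THO1 (0.945) and TCP7 (0.938) for NHX3 and HEXO1 (0.938), AFB2 (0.932) and SOBER1 (0.931) for NHX4. SOS1 was most like PRP39 (0.895), STA1 (0.891) and CHB3 (0.887), and NHX8 most like SKIP14 (0.902), CBP60C (0.893) and CDF2 (0.862). These values describe 12 libraries that share 4 group means, and were picked as the highest of about 7158 genes each.

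In the SOS module, calcium sensors and kinases switch on SOS1. The 13 genes listed for it include regulators, some of which, such as GI, restrain it, and 11 of the 13 lay above the filter. Salt raised 5 and lowered 2 of them in wild type, and raised 6 and lowered 3 in the line, with medians of 0.40 and 0.69. These are 7 and 9 of 11, beside 53.8% and 64.8% of all genes called. The kinase CIPK24 (SOS2) was not called (0.13 ± 0.25, adjusted p = 0.67, in wild type and 0.32 ± 0.25, adjusted p = 0.27, in the line). CIPK24 without replicate 1 of the salt-treated line was called in the line (0.58, adjusted p = 0.021) and, under salt, in the line against wild type (0.74, adjusted p = 0.0083). Its sensor CBL4 (SOS3) lay below the filter, at 0.62 to 1.25 FPKM untreated and 0.07 to 0.22 after salt over both genotypes. CIPK11, a kinase that restrains a plasma membrane proton pump, was also below it, at 0 to 0.26 FPKM untreated and 0.69 to 1.03 after salt.

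ABI2, a phosphatase that binds SOS2, rose by 2.38 ± 0.15 in wild type (adjusted p = 2.5e-07) and 3.08 ± 0.16 in the line (adjusted p = 5.1e-08). CIPK8, a kinase that can also activate SOS1, rose by 1.06 ± 0.16 (adjusted p = 0.00017) and 1.75 ± 0.16 (adjusted p = 3.4e-06). The shoot calcium sensor CBL10 fell by 1.21 ± 0.40 in wild type (adjusted p = 0.022) and by 2.78 ± 0.44 in the line (adjusted p = 0.00018), and under salt it was lower in the line at -1.65 ± 0.44 (adjusted p = 0.016). The CBL10 interaction was called without replicate 1 of the salt-treated line (-2.37, adjusted p = 0.00057). GI, a clock protein that holds SOS2 back, rose by 1.99 ± 0.27 in wild type (adjusted p = 8.1e-05), as did the annexin gene ANN4, by 2.12 ± 0.39 (adjusted p = 0.00078). With salt in the line GI rose by 0.97 ± 0.24 (adjusted p = 0.0038). ANN4 in the line stood at 16.2 to 27.9 FPKM untreated and at 33.2 to 93.6 after salt. GI was higher in the line by 2.34 ± 0.27 without salt (adjusted p = 0.00056) and 1.32 ± 0.24 under salt (adjusted p = 0.0039).

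Under salt the line against wild type had 4 of the 11 SOS genes up and 2 down, beside 34.6% of all genes called. Without replicate 1 of the salt-treated line it had 6 up and 3 down, where 9185 of all 17038 genes were called. In that setting ANN4 was lower in the line under salt (-1.64, adjusted p = 7.5e-05) and MPK6 higher (0.36, adjusted p = 0.0069). With all libraries, besides GI, ABI2 was higher in the line under salt by 0.72 ± 0.14 (adjusted p = 0.0053). RCD1, whose protein binds the SOS1 tail, was higher by 0.73 ± 0.19 (adjusted p = 0.014). In the line MPK6, a kinase of SOS1, rose with salt by 0.69 ± 0.12 with all libraries (adjusted p = 0.00033). The interaction called 0 of 11, and 4 up and 3 down without replicate 1 of the salt-treated line, where 6270 genes in all were called in place of 1001.

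**Figure D4:**
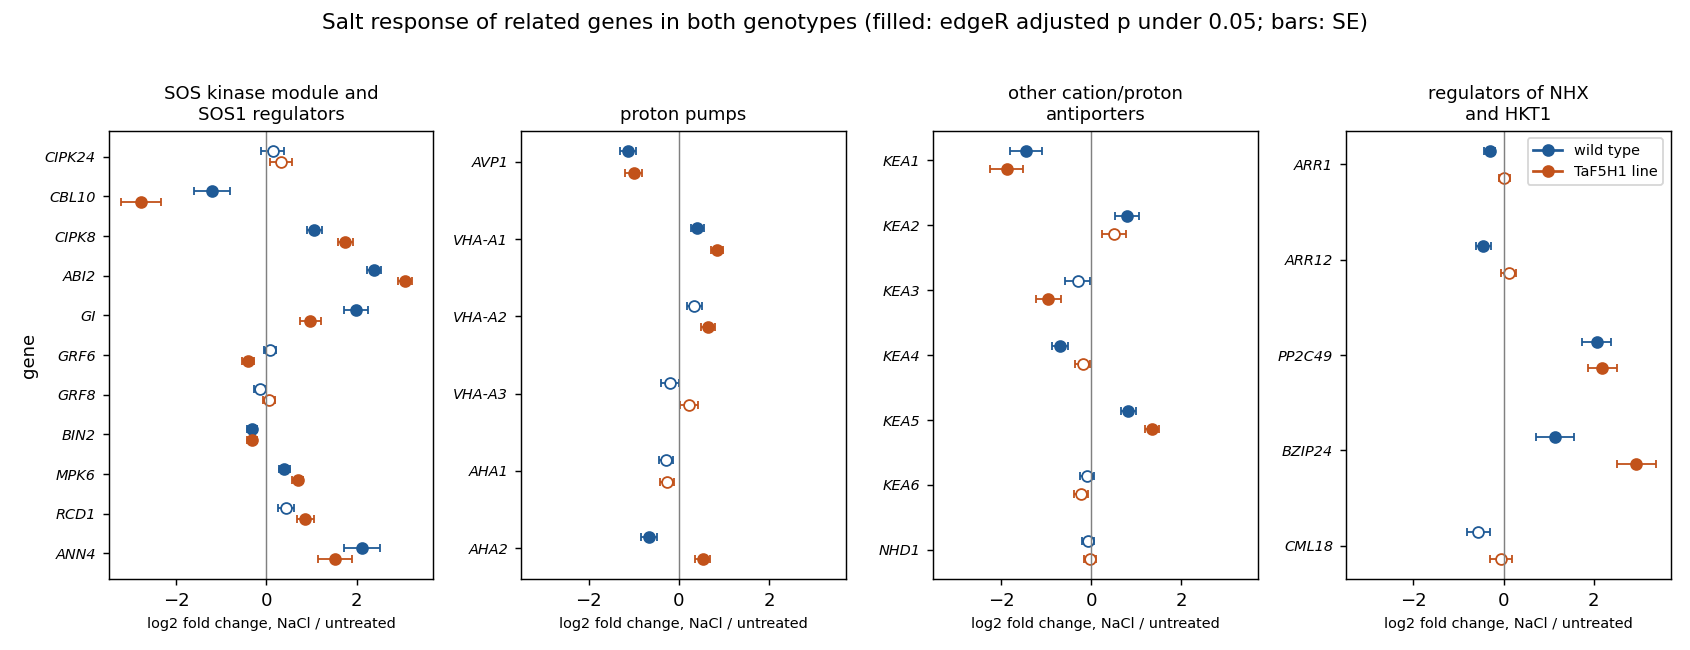
Log2 fold change of salt-treated against untreated leaves (x axis) for related genes in wild type (blue) and the TaF5H1 line (orange), with standard errors as bars and filled symbols for an edgeR adjusted p under 0.05. AHA2 lies at -0.66 in wild type and 0.53 in the line, while AVP1 lies near -1 in both.

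Proton pumps energise these antiporters. Of 6 listed, 1 rose and 2 fell in wild type, where 53.8% of all genes were called, and 3 rose and 1 fell in the line, where 64.8% were, so both counts are near the background. VHA-A2 was also called, without replicate 1 of the salt-treated line, for salt in wild type (0.38, adjusted p = 0.016) and for the untreated line against wild type (-0.41, adjusted p = 0.023). AVP1, the vacuolar pyrophosphatase, fell by 1.13 ± 0.18 in wild type (adjusted p = 0.00027) and by 1.00 ± 0.18 in the line (adjusted p = 0.00045). Of the vacuolar and Golgi ATPase subunits, VHA-A1 rose by 0.41 ± 0.14 in wild type (adjusted p = 0.027) and by 0.85 ± 0.14 in the line (adjusted p = 0.00025), and VHA-A2 rose by 0.64 ± 0.16 in the line (adjusted p = 0.0035). With library totals in place of TMM the rise of VHA-A1 in wild type was 0.21 (adjusted p = 0.23). In the untreated line against wild type 0 of the 6 pumps were called up and 2 down, beside 13.9% of all genes called. Under salt 1 was up and 0 down, beside 34.6%. VHA-A3 was lower in the untreated line, at -0.66 ± 0.20 (adjusted p = 0.048), and not called with library totals (-0.57, adjusted p = 0.064).

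AHA2, a plasma membrane proton pump that powers SOS1, responded in opposite directions. It stood at 55.3, 56.3 and 51.6 FPKM in untreated wild type and at 28.3, 28.6 and 33.3 after salt. For the line the values were 38.1, 30.4 and 38.1 untreated and 30.4, 46.9 and 51.8 after salt, with replicate 1 of the salt-treated line inside the range of the untreated line. AHA2 fell by 0.66 ± 0.17 with salt in wild type (adjusted p = 0.0067) and rose by 0.53 ± 0.17 in the line (adjusted p = 0.017), and the difference of 1.19 ± 0.24 was called (adjusted p = 0.023). Leaving out replicate 1 of the salt-treated line gave a rise of 0.74 (adjusted p = 0.00014), and library totals in place of TMM gave 0.27 (adjusted p = 0.21), while the difference was called in both (1.37, adjusted p = 4.5e-05, and 1.13, adjusted p = 0.03). The untreated libraries of the line all lay below those of wild type, and the salt-treated ones overlapped. Without that replicate AHA2 in the line against wild type was -0.69 untreated (adjusted p = 0.00064) and 0.67 under salt (adjusted p = 0.00054). AHA1 and AHA2 are close paralogs, and how reads matching both were counted is not stated in these sources, so their values are uncertain.

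Of 7 other cation/proton antiporters, salt raised 2 and lowered 2 in wild type, beside 53.8% of all genes called, and raised 1 and lowered 2 in the line, beside 64.8%. KEA5 rose by 0.82 ± 0.16 (adjusted p = 0.0011) and 1.35 ± 0.16 (adjusted p = 2.2e-05). KEA1, a potassium/proton antiporter of the chloroplast envelope, fell by 1.44 ± 0.36 (adjusted p = 0.0052) and 1.88 ± 0.36 (adjusted p = 0.0008). KEA2 rose by 0.80 ± 0.27 (adjusted p = 0.025) and KEA4 fell by 0.69 ± 0.17 (adjusted p = 0.0044) in wild type, and the thylakoid gene KEA3 fell by 0.95 ± 0.27 in the line (adjusted p = 0.0096). With library totals in place of TMM the rise of KEA2 was 0.60 (adjusted p = 0.063). KEA4 was lower in the untreated line at -0.71 ± 0.17 (adjusted p = 0.016). Under salt KEA5 was higher in the line by 0.62 ± 0.16 (adjusted p = 0.013), KEA1 lower at -1.15 ± 0.36 (adjusted p = 0.029) and KEA6 lower at -0.49 ± 0.15 (adjusted p = 0.03). KEA1, without replicate 1 of the salt-treated line, was lower in the untreated line (-0.70, adjusted p = 0.0066) and under salt (-1.83, adjusted p = 6.7e-06). In the same setting KEA3 fell by 1.45 with salt in the line (adjusted p = 8e-07) and was lower in the line under salt (-1.27, adjusted p = 6.2e-06), and the interaction was called for both genes (adjusted p = 0.0037 for KEA1 and 0.00023 for KEA3).

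Of 6 regulators of NHX and HKT1 genes or proteins, 5 passed the filter, and ABI4, a repressor of HKT1, had 0 counts in all libraries. PP2C49, a phosphatase that inhibits HKT1, rose by 2.06 ± 0.32 in wild type (adjusted p = 0.0002) and by 2.19 ± 0.32 in the line (adjusted p = 0.0001). BZIP24, a transcription factor of the salt response, rose by 1.13 ± 0.42 in wild type (adjusted p = 0.039) and by 2.95 ± 0.43 in the line (adjusted p = 0.0001), and under salt it was higher in the line by 1.77 ± 0.41 (adjusted p = 0.0091). The response regulators ARR1 and ARR12, which restrain HKT1 in Arabidopsis roots, fell in wild type by 0.31 ± 0.12 (adjusted p = 0.04) and 0.45 ± 0.16 (adjusted p = 0.035). With library totals in place of TMM the rise of BZIP24 in wild type was 0.93 (adjusted p = 0.084). The BZIP24 interaction was called without replicate 1 of the salt-treated line (2.18, adjusted p = 0.00086), and with it left out PP2C49 was higher in the line under salt (0.86, adjusted p = 0.031). The NHX1 partner CML18 was not called in any comparison with all libraries. Without that replicate it was called for salt in wild type (-0.53, adjusted p = 0.0065), for the line against wild type under salt (0.70, adjusted p = 0.0025) and for the interaction (0.79, adjusted p = 0.012).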

How the data were processed

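The authors deposited un-normalized counts and FPKM values for 34218 genes in 12 libraries, with 3 replicates in each of 4 groups. Per the submitters' processing notes, bcl2fastq 2.17.1.14, cutadapt 1.9.1, HISAT2 2.0.1 and the build TAIR10 were used, and neither the counting program nor its strand setting is stated there. A recalculation of the deposited FPKM from counts, exon length and library total matched within 0.005. Coordinates are as deposited, and 32532 of 32548 loci had the same ones in TAIR10.1, which gave the promoters and gene symbols.

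Counts entered 1 edgeR 4.0.16 model (R 4.3.3) with a mean per group and TMM scaling, and genes averaging 1 FPKM or more were tested by quasi-likelihood. Comparisons were salt in each genotype, the line against wild type in each treatment, and the interaction. HKT1 was read from the alternative with filterByExpr. The script was tested on simulated data. Alternatives were other scalings and filters, DESeq2 1.42.0, limma 3.58.1 on log2(FPKM + 1) and log2(FPKM + 0.1), only the groups compared, a replicate block and each library left out. The members, lists and tests were chosen with earlier results of these data known, all members are named in every comparison, and from each list the 4 called genes with the smallest adjusted p. Markers that describe the tissue are named besides. No pair of libraries agreed within sampling noise (lowest chi-square per degree of freedom 6.7). Library totals of 17173618 to 21651124 counts limit HKT1, NHX3 and NHX4. The tests set differences between group means against the spread between replicates, estimated over all 4 groups together. The series calls the replicates biological, and with 1 line they hold no spread between lines.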

Additional observations from a re-analysis of the deposited data

Results flagged for a closer look

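The salt response of NHX4 differed between the genotypes by the test of that difference. The log2FC in the line exceeded that in wild type by 1.91 ± 0.45 (edgeR adjusted p = 0.035), with NHX4 at 3.68 ± 0.703 FPKM (SD, n = 3) and 0.49 ± 0.061 in untreated and salt-treated wild type, and at 1.66 ± 0.461 and 0.803 ± 0.370 in the line. All 3 wild-type libraries were lower after salt than any before it, and in the line the groups overlapped. The call on this difference ended in 10 of 21 alternatives, which were the replicate block and 9 of the 12 fits with 1 library left out (adjusted p up to 0.083). Another of the 21, only the groups compared, repeats the main fit here, since all 4 groups enter the difference.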

How the results depend on the processing

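None of the member results changed direction with a call. Across the values of the 9 members under the alternatives, 880 kept their side of the threshold, 58 lost the call and 21 gained one. Some of the 880 changed direction without a call, as NHX8 did for salt in the line (0.13, and -0.13 at the lowest). For the interaction, the setting with only the groups compared repeats the main fit, since all 4 groups enter it. Its values count among the 880. Counts of genes called over the whole table moved more. For the line against wild type without salt, the count of 2371 became 3992 with only the groups compared, and 1160 to 5121 with 1 library left out. For the line against wild type under salt, 5888 became 2000 with only the groups compared, and 2649 to 9185 with 1 library left out. For the interaction, 1001 became 2531 with DESeq2 and 1569 with limma on log2(FPKM + 1), and 129 to 6270 with 1 library left out. The highest count in all 3 came without replicate 1 of the salt-treated line. The 4 groups share 1 estimate of the spread, so a library also enters comparisons of other groups. The causes of these changes in count were not tested.

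The labels give replicate numbers 1 to 3 in every group, but 18 same-number pairs had correlations of their deviations from -0.259 to 0.239, 4 of them over 0.1, and 2 of 12 libraries correlated best with their own number, so the numbers were not taken as pairs. A replicate block lowered the interaction count to 644, and ended the calls on NHX4 for the interaction (1.89, adjusted p = 0.053) and on NHX5 for salt in the line (-0.31, adjusted p = 0.055).

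Calls on NHX1, NHX2 and NHX6 under salt in both genotypes, and on NHX4 and NHX5 under salt in wild type, were kept under every alternative that could be fitted. HKT1 could not be fitted with a filter of 5 FPKM, nor could NHX3, NHX4, SOS1 and NHX8. Low counts limit HKT1 (1 to 34 per library) and NHX3 (5 to 77).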
